A study of Homo sapiens with 18 samples.

Results

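KBM7 cells, a human chronic myelogenous leukaemia line, were exposed for 5 h to dCeMM-3 or to dCeMM-4, each at 10 times its own EC50, and their polyadenylated RNA was sequenced. The comparison takes 6 of the 18 libraries of the series, the 3 of dCeMM-3 (labelled Hit2) and the 3 of dCeMM-4 (labelled Hit8), and 3 libraries of cells given the solvent DMSO for the same time serve as background. The remaining libraries, of dCeMM-1, dCeMM-2 and THZ531, entered the estimate of the spread and the filter on low counts. The study's title names strategies for finding molecular glue degraders, and nothing in the labels tells whether replicate libraries were grown as separate cultures, so p-values measure the spread between these libraries only. Cells of every group were grown in IMDM with serum, and the compounds are known here by their codes alone.

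Cyclin K, encoded by CCNK, is the partner of the kinases CDK12 and CDK13, which phosphorylate the tail of RNA polymerase II while it transcribes, and both kinases are known for their part in the full-length expression of long genes and of DNA repair genes. A molecular glue degrader brings a protein to a ubiquitin ligase that would otherwise not bind it. dCeMM-3 and dCeMM-4 are both known as degraders of cyclin K, through the binding of the CDK12 and cyclin K pair to the ligase adaptor DDB1 of the CUL4 ligase. The comparison therefore sets side by side the transcripts left by 2 compounds with a shared known target at a matched multiple of potency, and protein levels were not measured in these files.

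The libraries of the 2 compounds stood apart in composition. Gene counts ran from 10632587 to 15509920 per dCeMM-3 library and from 16589288 to 17943571 per dCeMM-4 library, within a range of 4598576 to 17943571 over the series. Synthetic spike-in RNA made up 0.542% ± 0.0699 of the gene and spike-in counts with dCeMM-3, 0.234% ± 0.0497 with dCeMM-4 and 0.179% ± 0.0200 with DMSO (SD, n = 3 each), a ratio of 2.31 between the compounds. Genes of the mitochondrial chromosome took 12.9% ± 2.25 of gene counts with dCeMM-3, 6.13% ± 1.40 with dCeMM-4 and 5.14% ± 0.662 with DMSO. For both shares the dCeMM-3 and dCeMM-4 libraries did not overlap, and the exact two-sided permutation test gave p = 0.1, the smallest value that 3 against 3 allows. Because the spike-in share differed, the main comparisons were made on 2 scales: TMM scaling, which sets a gene against the bulk of the other genes, and spike-in scaling, which sets it against the added RNA. Values with no scale named are on the TMM scale, and a level above DMSO there can lie below DMSO by spike-in. The labels do not tell how much spike-in was added for a given quantity of cells or RNA, and in bulk RNA fewer cells and less RNA per cell cannot be told apart.

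**Figure D1:**
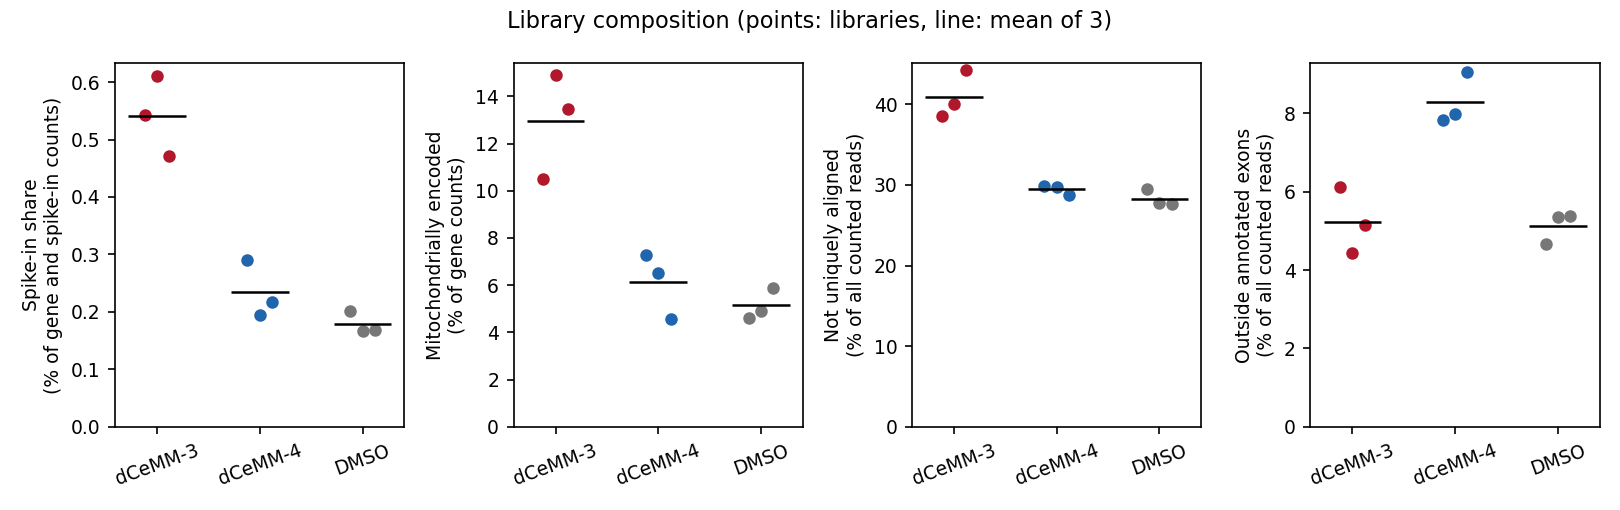
Composition of the dCeMM-3, dCeMM-4 and DMSO libraries, in percent: spike-in share, mitochondrially encoded share, reads not uniquely aligned and reads outside annotated exons. Points are libraries and lines are means of 3; the dCeMM-3 libraries lie above the dCeMM-4 libraries in the first 3 panels and below them in the last.

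The 15 myeloid and blast markers summed to 342 to 364 CPM (gene counts scaled to a common total, without TMM) in the dCeMM-3 libraries, 1347 to 1493 CPM in the dCeMM-4 libraries and 1883 to 1916 CPM with DMSO, and none was at 0 in all libraries of a group. MYB, a blood progenitor transcription factor, was the leading term of the dCeMM-4 sums, while MPO, CD38 and FLT3 stayed below 1 CPM in every library. The 15 erythroid and megakaryocytic markers summed to 8.72 to 10.9 CPM with dCeMM-3 and 15.1 to 17.4 CPM with dCeMM-4. With DMSO they summed to 37.6 to 42.5 CPM, and NFE2 was the leading term of the DMSO sums. Of these 15 markers, HBB, HBA2, HBG1, ALAS2, KLF1 and PF4 were at 0 in all 9 libraries. The 15 lymphoid markers summed to 815 to 877 CPM, 423 to 443 CPM and 433 to 465 CPM with dCeMM-3, dCeMM-4 and DMSO, mostly CD4 and CD3D, with the B-cell marker MS4A1 at 0 with both compounds. Whether a difference in the cells present had a part in the results was not tested.

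On the TMM scale, 12449 of 15055 genes differed between dCeMM-3 and dCeMM-4 (edgeR's quasi-likelihood test, Benjamini-Hochberg FDR under 0.05 over all genes), which is 82.7% of those tested. Of them 6252 were higher with dCeMM-3 (41.5%) and 6197 were lower (41.2%). At least 2-fold differences were called for 7737 genes (51.4%), and 920 called genes were at least 8-fold lower with dCeMM-3 and 157 at least 8-fold higher. Spike-in scaling called 10638 genes, 70.7% of those tested, with 8554 at least 2-fold (56.8%), and the balance was another one: 805 genes were higher with dCeMM-3 (5.35%) and 9833 were lower (65.3%). The median log2 fold change over all genes was 0.08 on the TMM scale and -1.17 on the spike-in scale. All 6197 genes lower on the TMM scale were lower on the spike-in scale too, all 805 genes higher on the spike-in scale were higher on the TMM scale, and 1719 genes were called higher on the TMM scale and lower on the spike-in scale. The CPM of the dCeMM-3 and dCeMM-4 libraries did not overlap for 12293 genes (81.7%). For 1551 genes (10.3%) the 95% interval of the log2 fold change lay within 0.5 of 0, so that a larger difference is outside it.

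Set against the DMSO libraries, which both contrasts share, the 2 compounds often had calls of opposite sign. On the TMM scale dCeMM-3 changed 12202 genes (81.0%) and dCeMM-4 changed 10270 (68.2%), with a median absolute log2 fold change of 1.03 for dCeMM-3 and 0.58 for dCeMM-4. There were 1146 genes higher with dCeMM-3 and lower with dCeMM-4, and 2268 lower with dCeMM-3 and higher with dCeMM-4. Another 5132 were called in one direction with both, 1976 higher and 3156 lower. By spike-in the opposite calls came to 5 and 731. There, 12776 genes (84.9%) differed from DMSO with dCeMM-3, 168 higher (1.12%) and 12608 lower (83.7%), and 8180 (54.3%) with dCeMM-4, 948 higher (6.30%) and 7232 lower (48.0%).

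**Figure D2:**
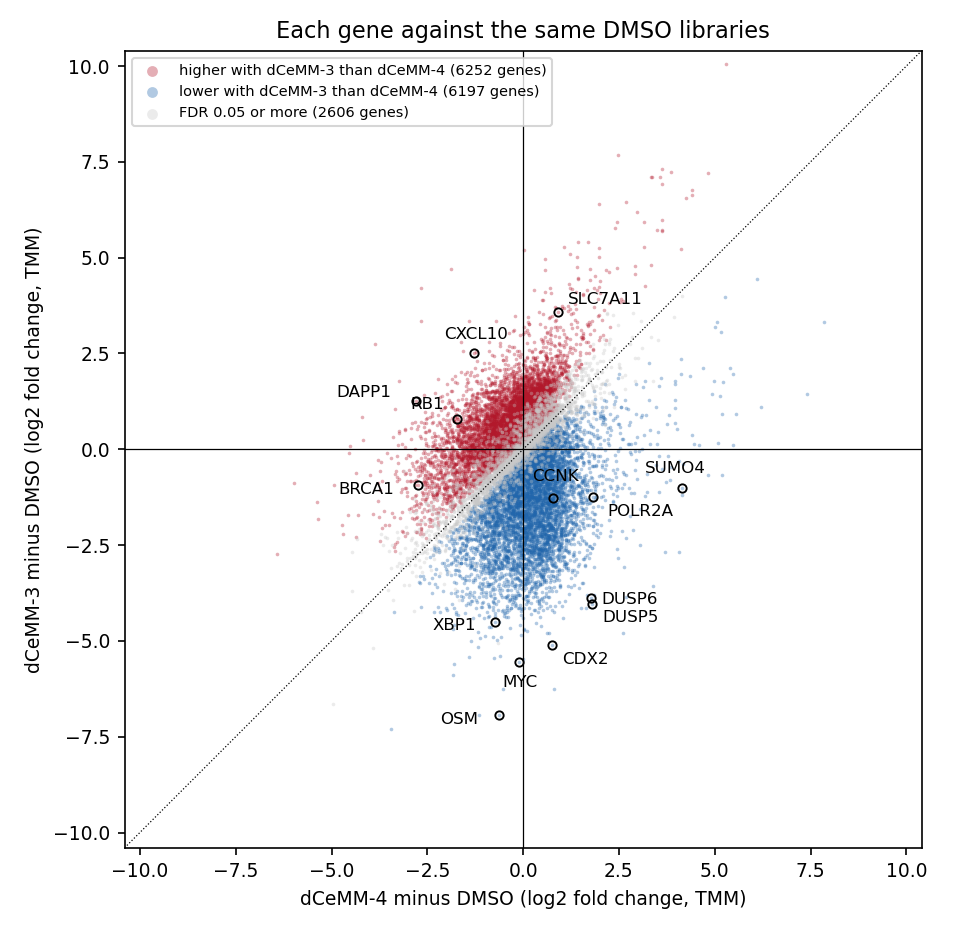
Each of the 15055 genes by its log2 fold change against DMSO, dCeMM-4 on the horizontal and dCeMM-3 on the vertical axis (TMM scale), coloured by the dCeMM-3 against dCeMM-4 call; the dotted line marks equal values and both axes share the DMSO libraries. MYC, OSM, XBP1, CDX2, DUSP5 and DUSP6 lie far below the line and CXCL10, DAPP1, RB1, BRCA1 and SLC7A11 above it.

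The transcripts of cyclin K and both its kinases were lower with dCeMM-3 than with dCeMM-4. CCNK (ENSG00000090061, chr14:99481169-99535044, plus strand of GRCh38) had 49.5, 54.2 and 49.2 TMM-scaled CPM with dCeMM-3, 216, 208 and 204 CPM with dCeMM-4, and 122 ± 3.51 CPM with DMSO (SD, n = 3). The DMSO level lay between those of the compounds: log2 fold changes against DMSO were -1.26 for dCeMM-3 and 0.78 for dCeMM-4, and the difference between them was -2.04 (95% interval -2.18 to -1.91, FDR 4.9e-27 by edgeR). By spike-in the values against DMSO were -3.09 for dCeMM-3 and 0.20 for dCeMM-4, and that of dCeMM-4 did not pass the test (FDR 0.43). CDK12 (chr17:39461511-39564907) had 41.7, 38.7 and 48.5 CPM with dCeMM-3 and 182, 185 and 192 CPM with dCeMM-4, beside 179 ± 4.25 CPM with DMSO. CDK13 had 19.4 to 23.7 CPM in the 3 dCeMM-3 libraries and 120, 122 and 123 CPM with dCeMM-4, beside 110 ± 1.21 CPM with DMSO. For these 2 kinases the dCeMM-3 libraries alone lay far from DMSO, with differences between the compounds of -2.11 for CDK12 and -2.53 for CDK13. By spike-in the differences were -3.30 for CCNK, -3.36 for CDK12 and -3.78 for CDK13. CCNK overlaps CCDC85C on the other strand, whose difference was -3.03, and since the strand setting of the counts is not stated, reads of the 2 genes may be mixed.

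Genes of the ligase that both compounds are known to use differed less. Of 18 genes of the CUL4 and DDB1 machinery, 11 were lower and 4 higher with dCeMM-3 (median log2 fold change -0.65, against 0.08 over all genes), and 16 were lower and 1 higher by spike-in. Over all genes 41.5% were higher and 41.2% lower by TMM, and 5.35% and 65.3% by spike-in. These shares are to be set beside every list count between the compounds that follows. DDB1 had 286, 327 and 289 CPM with dCeMM-3 and 377, 391 and 429 CPM with dCeMM-4, a difference of -0.41 (95% interval -0.54 to -0.28). The largest falls that the naming rule gives were in UBE2G1, a ubiquitin-conjugating enzyme (-3.12), COPS2, a COP9 signalosome subunit that helps remove NEDD8 from cullins (-2.66), and DCAF1, a substrate receptor (-2.57). The higher members, named after their values were seen, were the cullin CUL4B (0.46), the RING protein RBX1 (0.59), NEDD8 itself (1.07) and the adaptor-complex member DET1 (2.37). Of these CUL4B, RBX1 and NEDD8 turned negative by spike-in, and DET1 kept its sign at 1.14. NEDD8 overlaps GMPR2 on the other strand, which differed by 1.05, so their reads may be mixed. RBM39, the splicing factor known as the target of dCeMM-1, was also lower with dCeMM-3, at -1.85.

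The machinery of transcription elongation was among the groups that moved most. Of 32 elongation kinases and factors, 26 were lower with dCeMM-3 and 4 higher, with a median of -2.17, and 30 were lower and 0 higher by spike-in. LEO1, a subunit of the PAF1 complex that travels with RNA polymerase II, averaged 8.94 ± 0.601 CPM with dCeMM-3, 118 ± 7.38 CPM with dCeMM-4 and 86.2 ± 3.92 CPM with DMSO, and it overlaps MAPK6, which was also lower with dCeMM-3. The histone methyltransferase SETD2, which marks the bodies of transcribed genes, averaged 48.9 ± 4.16 CPM with dCeMM-3, 346 ± 15.1 CPM with dCeMM-4 and 158 ± 9.56 CPM with DMSO. The DMSO libraries lay between the compounds for SETD2, with log2 fold changes against DMSO of -1.69 for dCeMM-3 and 1.13 for dCeMM-4. HEXIM1, the protein inhibitor of the elongation kinase P-TEFb, differed by -2.24, and its log2 fold change against DMSO was -0.29 with dCeMM-3 and 1.95 with dCeMM-4. The 4 higher members, named after their values were seen, were NELFB (0.29), TCEA1 (0.51), SUPT4H1 (0.54) and NELFE (1.28), of which NELFE alone kept a positive sign by spike-in, at 0.034, without passing the test. NELFB missed the threshold without dCeMM-3 replicate 2 or dCeMM-4 replicate 1, at 0.15 and 0.22.

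Among RNA polymerase II subunits and general factors the members split, with 13 higher and 18 lower of 33 and a median of -0.34. That is 39.4% higher and 54.5% lower, beside 41.5% and 41.2% of all genes. POLR2A, which encodes the catalytic subunit of RNA polymerase II, had 125, 148 and 122 CPM with dCeMM-3, against 979, 1168 and 1165 CPM with dCeMM-4 and 313 ± 32.4 CPM with DMSO. It was thus lower than DMSO with dCeMM-3 (-1.25) and higher with dCeMM-4 (1.82), a difference of -3.07 (SE 0.08, FDR 3.9e-28). GTF2B, the initiation factor TFIIB, differed by -3.99 and POLR2B, the second-largest subunit, by -2.23. Mediator, the bridge between activators and the polymerase, had 24 of 32 members lower and 4 higher (median -1.38). MED26 differed by -3.80 and MED17 by -3.63. The 4 higher ones, again named after their values were seen, were MED30 (0.17), MED12 (0.46), MED24 (0.98) and the kinase CDK19 (1.66), and by spike-in MED30, MED12 and MED24 turned negative and CDK19 (0.43) did not pass the test. MED30 missed the threshold without dCeMM-3 replicate 1, dCeMM-3 replicate 3, dCeMM-4 replicate 1 or dCeMM-4 replicate 3, at 0.11 to 0.17. By spike-in, 28 of 33 polymerase genes and 30 of 32 Mediator genes were lower, beside 65.3% of all genes.

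Factors that end and process the transcript also fell for the most part. Of 26 cleavage, polyadenylation and termination genes, 17 were lower and 7 higher with dCeMM-3 (median -0.87), and by spike-in 22 were lower and 1 higher. CLP1, a cleavage factor subunit, averaged 1.62 CPM with dCeMM-3, 38.5 CPM with dCeMM-4 and 27.8 CPM with DMSO, and SCAF8, which acts against premature polyadenylation, averaged 15.9 ± 0.842, 167 ± 0.923 and 70.6 ± 4.56 CPM. The Integrator complex, which cleaves nascent RNA, was divided, with 8 members higher and 6 lower of 14 (median 0.26), and by spike-in 0 were higher and 10 lower. INTS5 had 1.45, 1.35 and 1.27 CPM with dCeMM-3 and 23.7, 30.9 and 26.8 CPM with dCeMM-4. INTS6 went the other way on the TMM scale, at 46.0, 35.3 and 46.2 CPM with dCeMM-3 and 20.4, 16.3 and 16.6 CPM with dCeMM-4, with both below the DMSO mean of 77.5 ± 4.99 CPM, and its spike-in difference of 0.05 did not pass the test.

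Splicing genes were lower with dCeMM-3, and several were above DMSO with dCeMM-4. Of 9 kinases that act on splicing factors, 8 were lower and 0 higher (median -2.09), and 9 were lower by spike-in. CLK1, which phosphorylates SR proteins, had 25.2, 17.6 and 28.1 CPM with dCeMM-3, against 196, 206 and 232 CPM with dCeMM-4 and 71.6 ± 4.94 CPM with DMSO. DYRK1A and CLK3 differed by -3.43 and -3.09. Of 32 SR and hnRNP proteins, 25 were lower and 6 higher (median -1.19), led by SRSF4 (-2.88), SRSF2 (-2.06) and TRA2B (-1.86), and by spike-in 30 were lower and 0 higher. The core spliceosome had 26 of 36 members lower and 4 higher on the TMM scale (median -0.62) and all 36 lower by spike-in, with PRPF4 at -3.89 and CDC5L at -2.29.

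**Figure D3:**
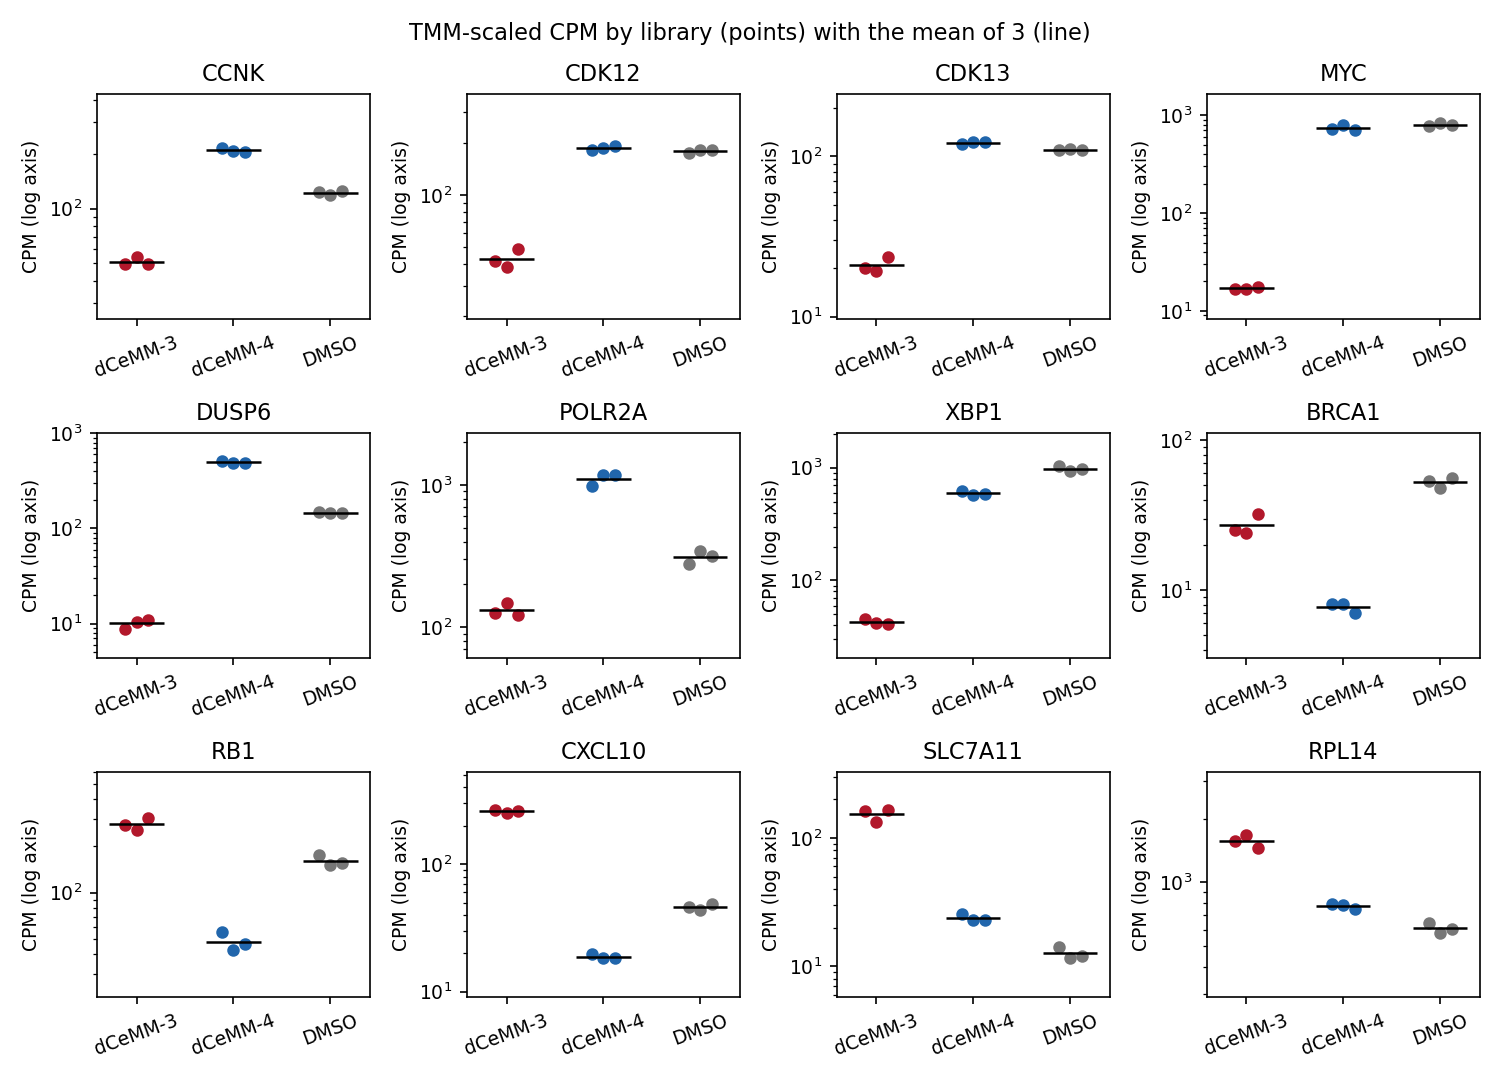
TMM-scaled CPM (log axis) of 12 genes in each library of dCeMM-3, dCeMM-4 and DMSO, with the mean of 3 as a line. The dCeMM-3 libraries lie below both other groups for CCNK, CDK12, CDK13, MYC, DUSP6, POLR2A and XBP1, between them for BRCA1, and above both for RB1, CXCL10, SLC7A11 and RPL14.

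Growth and signalling genes gave some of the widest gaps between the compounds. MYC, the transcription factor that drives ribosome production and growth, had 16.6, 16.9 and 17.6 CPM with dCeMM-3, 722, 799 and 705 CPM with dCeMM-4, and 802 ± 31.0 CPM with DMSO. It was 43.6-fold lower with dCeMM-3 than with dCeMM-4 (log2 fold change -5.45, SE 0.08, FDR 2.1e-37), while its log2 fold change against DMSO was -5.56 with dCeMM-3 and -0.11 with dCeMM-4. Of 13 genes of MYC and its MAX network, 11 were lower and 1 higher with dCeMM-3, and the median was -2.35, while by spike-in all 13 were lower. The repressor MNT, which competes with MYC for the partner MAX, differed by -3.85, and MGA, another MAX partner, by -2.35. The higher one was MXI1 (0.20, named after its value was seen), which was lower by spike-in (-1.05) and missed the threshold without dCeMM-3 replicate 1, dCeMM-3 replicate 3, dCeMM-4 replicate 2 or dCeMM-4 replicate 3, at 0.16, 0.16, 0.18 and 0.15.

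Genes of a list of MYC targets and ribosome biogenesis were mostly lower too. Of 32 members, 28 were lower and 3 higher (median -1.50), and 31 were lower and 0 higher by spike-in. NOP16, a nucleolar protein of the large ribosomal subunit's assembly, had 3.88, 3.32 and 3.81 CPM with dCeMM-3, against 106, 115 and 102 CPM with dCeMM-4 and 101 ± 5.94 CPM with DMSO. POLR1B, a subunit of RNA polymerase I, averaged below 10 CPM with dCeMM-3 and differed by -4.39, with dCeMM-4 at -0.01 from DMSO. The rRNA methyltransferase NOP2 differed by -3.82 and the box C/D protein NOP56 by -3.02. The higher members, named after their values were seen, were SRM (0.22), FBL (0.31) and CAD (1.53), of which SRM and FBL turned negative by spike-in and CAD (0.25) did not pass the test there. SRM missed the threshold without dCeMM-3 replicate 2 or dCeMM-4 replicate 1, at 0.11 and 0.15. The E-box CACGTG, the letters that MYC and MAX bind, reads the same on both strands. It stood in 12 of the 26 promoter windows found for this list (46.2%), against 2030 of all 27305 windows of the same length (7.43%). The list takes in MYC targets by choice, so this share is no separate result. One of the 12 windows is that of NOP2, shown because its transcript was among the lower ones (RefSeq, GRCh38.p14, chr12:6568242-6568541, minus strand, E-box in capitals).
NOP2: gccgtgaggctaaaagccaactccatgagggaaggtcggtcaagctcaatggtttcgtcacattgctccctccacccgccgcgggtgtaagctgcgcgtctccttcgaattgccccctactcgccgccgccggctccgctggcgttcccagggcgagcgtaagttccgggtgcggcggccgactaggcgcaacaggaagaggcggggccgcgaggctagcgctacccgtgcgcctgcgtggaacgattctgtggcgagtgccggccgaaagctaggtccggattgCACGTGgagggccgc

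The ERK feedback genes, which encode phosphatases and inhibitors that damp the RAS to ERK pathway, had the lowest median of the lists, -2.61, with 12 of 16 lower and 2 higher. DUSP6, a phosphatase of ERK, had 8.75, 10.5 and 11.0 CPM with dCeMM-3, against 510, 490 and 488 CPM with dCeMM-4 and 146 ± 1.58 CPM with DMSO. Its 49.5-fold difference (log2 -5.63, SE 0.09) joined a fall against DMSO with dCeMM-3 (-3.87) to a rise with dCeMM-4 (1.76), and by spike-in these 2 values were -5.68 and 1.19. DUSP5 had the same pattern at a lower level, with 0.658, 0.518 and 0.397 CPM with dCeMM-3, 28.4, 33.7 and 30.7 CPM with dCeMM-4 and 8.69 ± 0.631 CPM with DMSO. DUSP7 differed by -3.98 and SPRED2 by -2.84. The 2 higher members, named after their values were seen, were the transcription factors ETV5 (0.56) and ETV4 (0.87), and both were negative by spike-in, where 15 of 16 members were lower.

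BCR-ABL, the fusion kinase of this leukaemia, signals through STAT5, and 12 of 15 genes of that axis were lower with dCeMM-3 and 2 higher (median -2.35). PIM1, a survival kinase, had 68.7, 65.7 and 68.5 CPM with dCeMM-3 and 766, 813 and 779 CPM with dCeMM-4, a difference of -3.54. The feedback inhibitors CISH and SOCS2 differed by -3.35 and -3.23. OSM, the cytokine oncostatin M, had the largest fall of the genes ranked, with 0.263, 0.207 and 0.318 CPM with dCeMM-3 against 21.0, 23.4 and 20.8 CPM with dCeMM-4 and 33.5 ± 3.13 CPM with DMSO (log2 -6.30, SE 0.21). CCND2 (0.76) and STAT5B (1.51) were the higher 2, named after their values were seen. By spike-in CCND2 was at -0.50 and STAT5B at 0.25, the second without passing the test, and 14 of the 15 genes were lower.

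Of the 12 myeloid and blast markers tested, 10 were lower with dCeMM-3 and 0 higher, while of 9 lymphoid markers 7 were higher and 1 lower (median 0.94), and by spike-in 0 were higher and 2 lower. The transcription factor MYB had 83.4, 92.2 and 97.7 CPM with dCeMM-3, 764, 797 and 841 CPM with dCeMM-4, and 804 ± 55.9 CPM with DMSO, a difference of -3.14. GATA2 and RUNX1 differed by -3.11 and -1.63. CDX2, a homeobox factor aberrantly expressed in leukaemia, had below 1 CPM in each dCeMM-3 library and 28.3, 31.2 and 31.0 CPM with dCeMM-4 (log2 -5.86, SE 0.21). GATA6 differed by -5.63 and NR1D1, the clock repressor REV-ERB alpha, by -5.47.

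The other genes among the 12 largest falls were GAREM1 (-5.78), an adaptor of the EGF receptor that was at 0 in 1 dCeMM-3 library, ZNF57 (-5.47), AVPI1 (-5.45), FAM222A (-5.30) and SUMO4 (-5.16). SUMO4 had 0.197, 0.207 and 0.159 CPM with dCeMM-3, against 6.59, 7.30 and 7.07 CPM with dCeMM-4 and a DMSO mean of 0.433 CPM, so that dCeMM-4 alone was above DMSO. SUMO4 lies inside TAB2 on the same strand, so reads of the pair may be mixed, and TAB2 itself differed by -1.55. The 12 largest falls had a median span of 9.45 kb (range 1.07 to 346 kb) and 3 exons. The 12 largest rises had medians of 52.1 kb and 11.5 exons, and all protein-coding genes tested 33.2 kb and 10 exons. The 2105 coding genes at least 4-fold lower had a median of 28.6 kb and 7 exons.

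Most heat shock and unfolded protein genes were lower too. Of 19 heat shock and chaperone genes, 17 were lower and 2 higher (median -1.70). HSPA8, the constitutive HSP70 and one of the more abundant transcripts here, had 749, 869 and 786 CPM with dCeMM-3, against 6454, 6369 and 6710.4 CPM with dCeMM-4 and 6418 ± 159 CPM with DMSO. BAG3, a co-chaperone, had 5.19, 6.74 and 7.07 CPM with dCeMM-3 and 126, 131 and 117 CPM with dCeMM-4. HSPB1 (0.44) and HSF1 (0.58) were the higher 2, named after their values were seen, and both were negative by spike-in. In the unfolded protein response, 13 of 20 were lower and 3 higher. XBP1, its transcription factor, had 45.8, 42.0 and 41.2 CPM with dCeMM-3, against 618, 568 and 590 CPM with dCeMM-4 and 976 ± 48.1 CPM with DMSO, and the chaperone HSPA5 differed by -2.08. The higher ones were EDEM1 (1.25) and, named after their values were seen, CANX (0.73) and ATF6 (0.99), and all 3 were below 0 by spike-in.

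Amino acid and redox genes were divided. SLC7A11, the cystine transporter, had 162, 132 and 164 CPM with dCeMM-3, against 25.7, 22.8 and 22.8 CPM with dCeMM-4 and 12.6 ± 1.41 CPM with DMSO, and it stayed higher by spike-in (2.69 by TMM, 1.46 by spike-in). PSAT1, an enzyme of serine synthesis, differed by 1.76. Other ATF4 targets were lower: DDIT4, an inhibitor of mTOR signalling, differed by -3.30, SESN2 by -2.51 and ATF3 by -2.46, of which SESN2 and ATF3 were 2.47 and 2.05 above DMSO with dCeMM-4. The ATF4 list came to 10 higher and 9 lower of 20 (50% and 45%), and 2 higher and 13 lower by spike-in. The shares over all genes were 41.5% and 41.2% by TMM and 5.35% and 65.3% by spike-in. In the NRF2 list 9 of 20 were higher and 10 lower, with KEAP1, which holds NRF2 down, at -3.53 and the glutathione enzyme GCLC at -3.22.

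Regulators of cell death and growth arrest differed in both directions. The survival genes BCL2L1 and MCL1 had 12.2, 11.3 and 15.4 CPM and 47.9, 39.8 and 61.2 CPM with dCeMM-3, against 165, 169 and 158 CPM and 385, 387 and 353 CPM with dCeMM-4. PMAIP1, which encodes the pro-death protein NOXA, went the other way, with 145, 119 and 150 CPM with dCeMM-3, 42.5, 39.7 and 36.7 CPM with dCeMM-4 and 28.5 ± 5.73 CPM with DMSO. Its difference of 1.81 was 0.58 by spike-in (FDR 0.011). Of 27 p53 targets, 19 were lower and 5 higher (median -1.26), and by spike-in 23 were lower and 1 higher. CDKN1A, the p21 inhibitor of cyclin-dependent kinases, had 33.3, 35.7 and 34.5 CPM with dCeMM-3 and 81.0, 81.1 and 84.5 CPM with dCeMM-4, beside a DMSO mean of 19.4 ± 0.919 CPM. Against DMSO, CDKN1A was higher with both on the TMM scale (0.84 with dCeMM-3 and 2.09 with dCeMM-4), while by spike-in it was lower with dCeMM-3 (-0.99) and higher with dCeMM-4 (1.53). PPM1D and AEN differed by -3.64 and -3.46. The 5 higher p53 targets were PMAIP1 and, named after their values were seen, BAX (0.61), GDF15 (1.18), FAS (1.28) and DDB2 (1.54), of which BAX and GDF15 were negative by spike-in, FAS (0.053) and DDB2 (0.27) did not pass the test there, and PMAIP1 alone was still higher. FAS overlaps ACTA2 on the other strand, which differed by 1.26, so their reads may be mixed.

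FOXO targets, which include brakes on growth and metabolism, had 13 of 16 lower and 2 higher (median -2.21). FOXO1 had 4.41, 3.11 and 4.29 CPM with dCeMM-3, against 45.0, 41.4 and 46.8 CPM with dCeMM-4 and 9.90 ± 0.969 CPM with DMSO, and the alpha-arrestin ARRDC4 differed by -3.50. With dCeMM-3, 4 of the 16 were above DMSO and 11 below, and with dCeMM-4, 13 were above and 0 below, beside 35.9% above and 45.1% below for dCeMM-3 and 32.9% above and 35.3% below for dCeMM-4 over all genes. By spike-in 0 were above DMSO and 15 below with dCeMM-3, and 7 above and 3 below with dCeMM-4. Over all genes the spike-in shares were 1.12% above and 83.7% below with dCeMM-3, and 6.30% above and 48.0% below with dCeMM-4. The higher ones between the compounds were SESN3 (0.88) and PIK3IP1 (2.44), named after their values were seen, of which SESN3 was negative by spike-in.

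DNA repair genes, for which CDK12 is best known, were mostly below DMSO with either compound, and the members divided between them. Of 30 homologous recombination and damage response genes, 25 were lower than DMSO with dCeMM-3 and 26 with dCeMM-4, beside 45.1% and 35.3% of all genes. By spike-in 29 were lower with each, beside 83.7% of all genes with dCeMM-3 and 48.0% with dCeMM-4. Of 18 Fanconi anaemia genes, 13 were lower than DMSO and 4 higher with dCeMM-3, and 11 lower and 4 higher with dCeMM-4. Between the compounds, 10 of the 30 homologous recombination and damage response genes were higher and 14 lower with dCeMM-3 (median -0.14), and 3 and 21 by spike-in. Of the 18 Fanconi anaemia genes, 5 were higher and 8 lower (median -0.21), and 0 and 14 by spike-in. BRCA1 (chr17:43044295-43170245, minus strand) had 25.3, 23.9 and 32.3 CPM with dCeMM-3, against 8.08, 8.11 and 7.07 CPM with dCeMM-4 and 52.7 ± 4.04 CPM with DMSO. It was higher with dCeMM-3 than with dCeMM-4 on both scales, by 1.81 (SE 0.12, FDR 9.3e-17) and by 0.59 (FDR 0.016). ATM, the kinase that answers double-strand breaks and a gene named after its values were seen, was at 325, 234 and 298 CPM with dCeMM-3 and 68.6, 65.1 and 72.9 CPM with dCeMM-4, beside NPAT on the other strand at -1.19. PALB2, the partner of BRCA2, was lower, with 3.29, 3.42 and 4.69 CPM with dCeMM-3, against 25.3, 23.9 and 28.8 CPM with dCeMM-4 and 31.0 ± 2.01 CPM with DMSO. CLSPN and TOPBP1, which act in signalling by the checkpoint kinase ATR, differed by -2.32 and -1.67, and ATR itself by -0.36. FANCD2 and FANCI, the pair that is ubiquitinated in crosslink repair, differed by 0.40 and 1.19, and both were negative by spike-in, at -0.85 and -0.055. Against DMSO on the TMM scale, FANCD2 was at 0.61 with dCeMM-3 and 0.21 with dCeMM-4, and FANCI at 0.62 with dCeMM-3 and -0.57 with dCeMM-4. The FANCD2 difference missed the threshold without dCeMM-3 replicate 3, at 0.27.

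Cell cycle genes leaned lower. Mitotic genes had 23 of 32 lower and 8 higher (median -1.04), with KIF23, a motor of cytokinesis, at -2.91 and the kinase PLK1 at -2.30, and by spike-in 30 were lower and 1 higher. Replication and E2F genes had 19 lower and 11 higher of 32 (median -0.46), with GINS3, part of the replicative helicase, at -4.14, CCNE1, cyclin E, at -3.24 and E2F3 at -3.23. By spike-in 27 were lower and 0 higher. RB1, the retinoblastoma gene that restrains E2F (chr13:48303726-48599436, plus strand), had 275, 251 and 302 CPM with dCeMM-3, against 55.9, 42.5 and 46.3 CPM with dCeMM-4 and 160 ± 12.2 CPM with DMSO. Its difference was 2.52 by TMM (SE 0.09) and 1.30 by spike-in (FDR 1.7e-09). LPAR6 and RCBTB2, which overlap RB1 on the other strand, differed the opposite way, by -1.60 and -0.72.

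The 12 largest rises of dCeMM-3 over dCeMM-4 were of genes below DMSO with dCeMM-4 on both scales. DAPP1, an adaptor of B-cell receptor signalling, had 17.6 to 18.5 CPM in the 3 dCeMM-3 libraries, against 1.24, 1.10 and 0.854 CPM with dCeMM-4 and 7.51 ± 0.138 CPM with DMSO. It was the highest of the 12 at 4.07 (SE 0.16). RXFP1, the relaxin receptor, had 98.2, 90.7 and 120 CPM with dCeMM-3, against 6.71, 7.42 and 8.35 CPM with dCeMM-4 and 37.5 ± 4.11 CPM with DMSO. The next were LACTB2 (3.55), an endoribonuclease of mitochondria, IL10RB (3.50), a receptor chain of interleukin 10, and the channel TRPC1 (3.43), and all 3 were above DMSO with dCeMM-3 and below it with dCeMM-4 on the TMM scale, while by spike-in LACTB2 and IL10RB were below DMSO with both and TRPC1 with dCeMM-3 did not pass the test (-0.30, FDR 0.21). WDR31, the guanylate cyclase subunit GUCY1B1, the ATP receptor P2RX7, the anthrax toxin receptor ANTXR2, OPN3 and TCAF1 lay between 3.41 and 3.26. All 12 were higher by spike-in too, with DAPP1 at 2.85 and RXFP1 at 2.54. OPN3 shares its strand and part of its span with CHML, so their reads may be mixed.

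CXCL10, a chemokine induced by interferons, was the second of the largest rises. Its 300-base promoter window is printed because it carries a pair of motifs searched on both strands: GAAA, any 2 bases and GAAA again, found in interferon-response elements, and GGGA, any 2 bases and TTCC, a form of the kappa B site, with both matches in capitals (RefSeq, GRCh38.p14, chr4:76023448-76023747, minus strand).
CXCL10: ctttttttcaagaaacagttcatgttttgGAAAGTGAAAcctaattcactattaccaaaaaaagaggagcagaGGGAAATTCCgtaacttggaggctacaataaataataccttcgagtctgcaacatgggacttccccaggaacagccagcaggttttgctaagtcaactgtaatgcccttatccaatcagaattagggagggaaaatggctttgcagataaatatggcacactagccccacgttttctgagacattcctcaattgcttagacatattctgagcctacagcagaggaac
The interferon pair stood in 12 of 16 windows found for the interferon list (75%), against 3.65% of all windows. The kappa B form stood in 7 of 19 windows of the NF-kB list (36.8%), against 1.63% of all. Both lists were chosen by pathway, so these shares are no separate result.
CXCL10 had 266, 253 and 263 CPM with dCeMM-3, against 19.7, 18.5 and 18.2 CPM with dCeMM-4 and 46.2 ± 2.47 CPM with DMSO. Thus dCeMM-3 was above DMSO and dCeMM-4 below it, and the difference was 13.9-fold (log2 3.79, SE 0.08, FDR 3.5e-33), or 2.55 on the log2 spike-in scale. Of 24 interferon response genes, 12 were higher with dCeMM-3 and 6 lower (median 0.78), which became 5 and 11 by spike-in. OAS2, an antiviral sensor of double-stranded RNA, had 89.0, 88.1 and 86.8 CPM with dCeMM-3, against 20.9, 18.5 and 22.1 CPM with dCeMM-4 and 44.0 ± 2.65 CPM with DMSO. IFIT1, another interferon-induced gene, was lower with dCeMM-3, at -2.54, and MX1, named after its values were seen, stayed below 1 CPM in all 9 libraries although its difference of 2.21 passed the test on the TMM scale; by spike-in it did not (1.02, FDR 0.14).

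In the NF-kB pathway list 12 of 19 genes tested were lower and 3 higher (median -0.85). Its subunits RELA and NFKB1 had 13.7 to 15.5 CPM and 18.3 to 19.2 CPM with dCeMM-3, against 84.7 to 92.0 CPM and 91.8 to 94.7 CPM with dCeMM-4. RELB (0.61), NFKB2 (1.13) and TRAF1 (1.31) were the higher 3, named after their values were seen. By spike-in RELB and NFKB2 were negative and TRAF1 (0.068) did not pass the test. Of 32 immediate early genes, 22 were lower and 6 higher (median -1.14), with TRIB1 at -4.48, SRF, the serum response factor, at -2.38 and, on the other side and named after their values were seen, FOS at 1.78 and IER3 at 3.11. Counts of IER3 were low and uneven. Scaled by spike-in, they were 39.8, 25.4 and 50.1 with dCeMM-3, against 1.98, 5.58 and 25.7 with dCeMM-4. FOS had 24.1, 22.7 and 25.3 CPM with dCeMM-3, against 6.96, 7.30 and 6.77 CPM with dCeMM-4, and it stayed higher by spike-in (0.54, FDR 0.031).

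**Figure D4:**
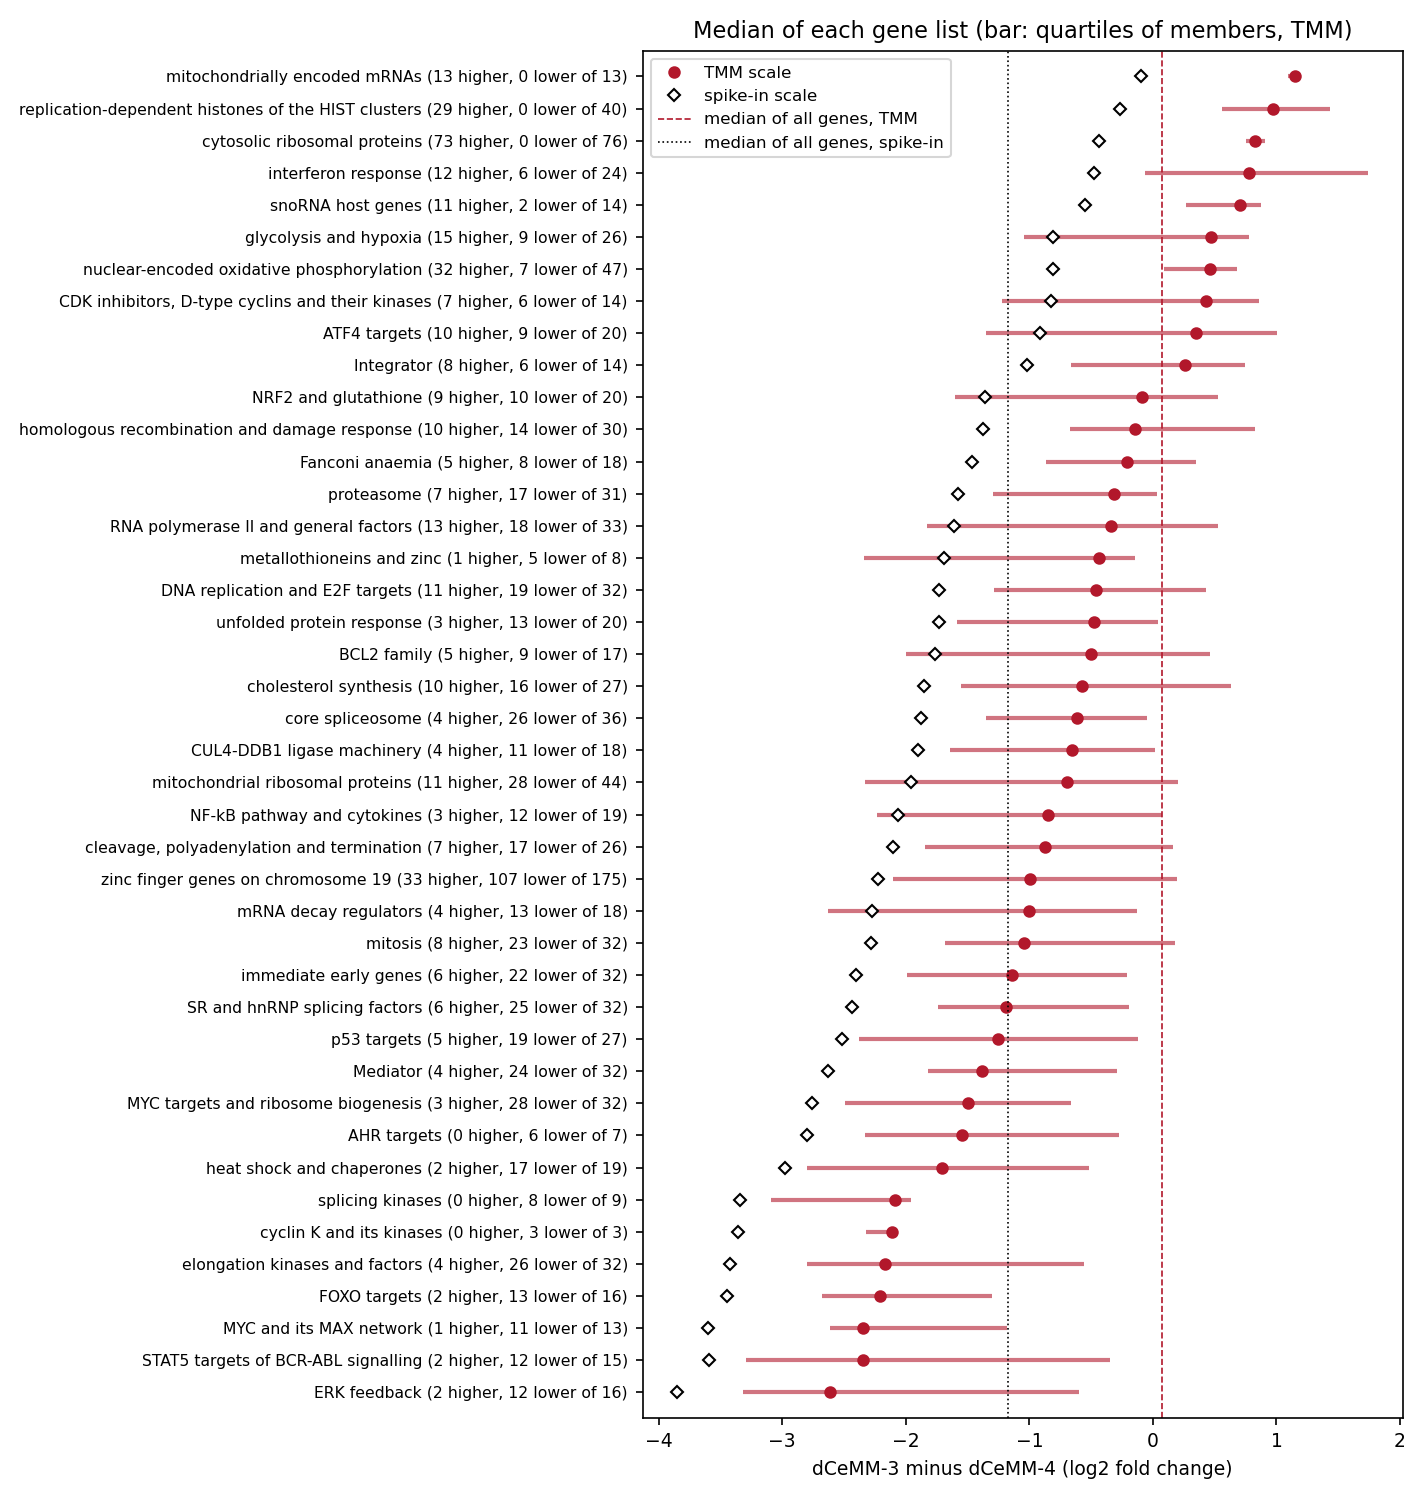
Median log2 fold change of dCeMM-3 over dCeMM-4 for each gene list, on the TMM scale (filled circles, with bars for the quartiles of the members) and on the spike-in scale (open diamonds), with the numbers of members called by TMM. Mitochondrially encoded mRNAs (1.15), histones (0.98) and ribosomal proteins (0.82) are at the top and ERK feedback (-2.61) at the bottom; every diamond is left of 0.

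Mitochondrially encoded and cytosolic ribosomal protein genes were higher with dCeMM-3 on the TMM scale. By spike-in no gene of either list was higher, most of the mitochondrial ones passed no test and many of the ribosomal ones were lower. Over all genes 5.35% were higher and 65.3% lower by spike-in (median -1.17), and the medians of both lists lay above that. All 13 mitochondrially encoded mRNAs were higher with dCeMM-3 (median 1.15), and by spike-in 0 were higher and 1 lower (median -0.10). Of 76 cytosolic ribosomal protein genes, 73 were higher and 0 lower (median 0.82), while by spike-in 0 were higher and 44 lower (median -0.44). RPL14 had 1566, 1665 and 1459 CPM with dCeMM-3, against 796, 784 and 752 CPM with dCeMM-4 and 608 ± 33.0 CPM with DMSO, and RPL13A averaged close to the same fold, at 0.98. Both were negative by spike-in, at -0.26 and -0.29, without passing the test. Nuclear genes of oxidative phosphorylation had 32 of 47 higher and 7 lower, and 0 higher and 39 lower by spike-in, with COX7C at 0.95 and UQCRFS1 at -2.47 by TMM. In contrast to the cytosolic ribosome, the mitochondrial ribosome had 28 of 44 genes lower and 11 higher by TMM, with MRPL15 at -3.11.

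snoRNA host genes, whose introns carry small nucleolar RNAs, had 11 of 14 higher and 2 lower (median 0.71). GAS5 and SNHG8 differed by 1.02 and 1.33 and SNHG15 by -1.95. By spike-in 10 of the 14 were lower and 0 higher, beside 65.3% and 5.35% of all genes, with SNHG8 at 0.064. Of 40 replication-dependent histone genes, 29 were higher and 0 lower (median 0.98), with HIST1H3G at 28.6, 23.5 and 31.1 CPM with dCeMM-3, against 5.10, 4.52 and 4.88 CPM with dCeMM-4 and 2.73 ± 0.378 CPM with DMSO. By spike-in 3 were higher and 9 lower. The libraries are of polyadenylated RNA, so these counts do not measure histone transcripts without a poly(A) tail. The histone genes have near-identical copies, and reads placed at several positions are not in the counts. The share of such reads was 41.0% ± 2.97 with dCeMM-3 and 29.4% ± 0.658 with dCeMM-4, and its part in these values was not tested.

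Metabolic and turnover lists were mixed on the TMM scale. Glycolysis and hypoxia genes had 15 of 26 higher and 9 lower, with the glucose transporter SLC2A1 at -4.50, with 4.47, 4.35 and 4.13 CPM with dCeMM-3 and 96.5, 99.0 and 98.2 CPM with dCeMM-4. EGLN1, an oxygen-sensing hydroxylase, differed by -3.21. Cholesterol synthesis had 16 of 27 lower and 10 higher, with SQLE, an enzyme that controls the pathway's rate, at -2.65. The proteasome had 17 of 31 lower and 7 higher, with the regulatory subunits PSMD12 and PSMD11 at -3.53 and -2.44. By spike-in 0 genes of these lists were higher. There, 20 of 26 glycolysis and hypoxia genes, 22 of 27 cholesterol genes and 31 of 31 proteasome genes were lower. The aryl hydrocarbon receptor AHR, at 12.1, 10.1 and 13.8 CPM with dCeMM-3 and 77.5, 74.1 and 69.5 CPM with dCeMM-4, differed by -2.61, its target TIPARP by -2.77, and 6 of 7 members of that list were lower. Among regulators of mRNA decay, TOB2 and BTG1 differed by -3.85 and -3.66, in a list with 13 of 18 lower. The zinc sensor MTF1 differed by -3.07. Zinc finger genes on chromosome 19 had 107 of 175 lower and 33 higher (median -0.99), with ZNF317 at -3.83.

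A few genes changed with both compounds by similar amounts on the TMM scale. Of 1428 genes at least 2-fold from DMSO in one direction with both, 187 had a difference between the compounds whose 95% interval lay within 0.5 of 0, 30 of them higher than DMSO and 157 lower. This bounds the size of the difference, and a gene can meet it while its difference passes the test. RASSF2, a RAS-binding tumour suppressor, had 84.5, 93.4 and 88.0 CPM with dCeMM-3, against 92.7, 90.0 and 95.4 CPM with dCeMM-4 and 248 ± 7.43 CPM with DMSO, and the difference was -0.07 (95% interval -0.20 to 0.06). TNFSF10, the death ligand TRAIL, had 186, 195 and 188 CPM with dCeMM-3, against 204, 189 and 186 CPM with dCeMM-4 and 480 ± 36.9 CPM with DMSO, and the difference was -0.03 (95% interval -0.16 to 0.11). MAP1LC3B, which encodes the autophagy protein LC3B, was less alike. It was above DMSO on the TMM scale by 1.04 with dCeMM-3 and 1.39 with dCeMM-4, thus lower with dCeMM-3 than with dCeMM-4. By spike-in it was at -0.77 with dCeMM-3 and 0.82 with dCeMM-4. By spike-in RASSF2 and TNFSF10 were lower with dCeMM-3, by -1.32 and -1.28, close to the median of all genes.

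**Figure D5:**
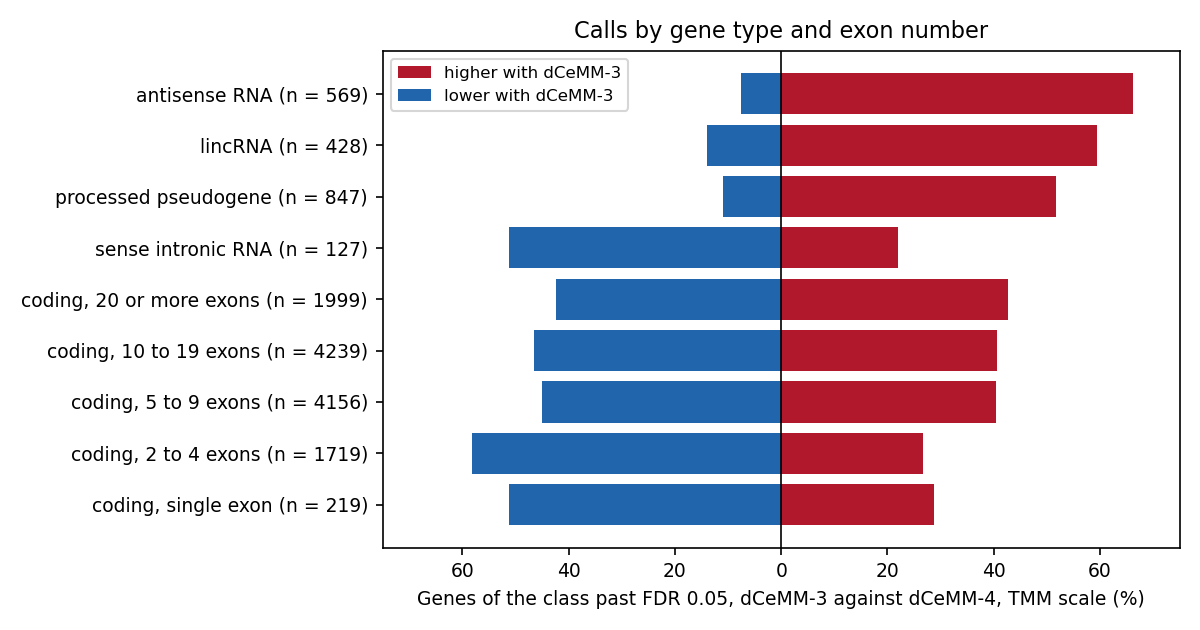
Percent of genes called higher (right) and lower (left) with dCeMM-3 than with dCeMM-4 on the TMM scale, by gene type and, for protein-coding genes, by the largest exon number of a transcript. Antisense RNAs and lincRNAs are mostly higher, and coding genes of 2 to 4 exons and sense intronic RNAs mostly lower.

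The direction of the difference varied with exon number and gene type. Protein-coding genes with 2 to 4 exons were lower with dCeMM-3 in 58.1% of cases and higher in 26.8% (median -0.84), while those with 20 or more exons were called lower in 42.5% and higher in 42.8% (median 0.04). Against DMSO, the 2 to 4 exon genes had a median of -0.97 with dCeMM-3 and 0.14 with dCeMM-4. lincRNAs and antisense RNAs had medians of 1.07 and 1.23 between the compounds, with 59.3% and 66.3% called higher on the TMM scale, and by spike-in their medians were -0.16 and -0.01. Sense intronic RNAs went the other way, with a median of -1.01 and 51.2% lower, and their medians against DMSO were 0.48 with dCeMM-3 and 1.47 with dCeMM-4. Reads outside annotated exons made up 5.24% ± 0.851 of counted reads with dCeMM-3, 8.28% ± 0.669 with dCeMM-4 and 5.13% ± 0.405 with DMSO. With reads not aligned to a single position left out of the total, the mean shares were 9.09%, 11.99% and 7.30%. The part of reads outside annotated exons in the values by exon number and gene type was not tested.

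Gene length was compared in a test that could not give a p below 0.1. Between the compounds, coding genes of 100 to 200 kb had a median difference of -0.35 and those of 500 kb or more one of 0.31. Per library, the median log2 change from DMSO of genes of 100 kb or longer less that of genes under 20 kb was -0.135, -0.188 and -0.052 with dCeMM-3, against -0.105, -0.131 and -0.084 with dCeMM-4. The means of -0.125 ± 0.0685 and -0.107 ± 0.0239 (SD, n = 3 each) differed by -0.019 (exact two-sided permutation p = 0.7), and that difference was 0.165 for genes of at least 200 kb minus genes under 10 kb. Both groups lay below the DMSO mean of -0.001 ± 0.0403, on which the measure is centred.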

How the data were processed

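Polyadenylated RNA of 18 KBM7 libraries (6 groups of 3) was sequenced with a CORALL kit and a synthetic ERCC and SIRV spike-in, per the labels' protocols. The deposited values are the authors' raw read counts per gene, ERCC sequence and SIRV gene, 1 table per library, not normalized. HTSeq 0.11.2, STAR 2.5.2b, Trimmomatic 0.32 and Picard are listed, with the build GRCh38.p7 and no roles, in the submitters' processing notes; strand setting and use of molecular identifiers are not given in the sources used here. The 5 HTSeq summary counts stayed out of library sizes and tests. Of 58051 gene identifiers, 57447 matched GENCODE 29.

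Genes passing filterByExpr by group (15055) were fitted with edgeR 4.0.16 (limma 3.58.1, R 4.3.3), a robust quasi-likelihood model with 1 coefficient per group over all 18 libraries, 12 residual degrees of freedom and a common dispersion of 0.00439. The threshold was FDR 0.05, Benjamini-Hochberg over all genes. TMM scaling is the main scale, and libraries were also scaled by their spike-in counts. Levels are TMM-scaled CPM. SEs and intervals are on the log2 scale, at 95%. The fit was tested on simulated data. Shares were compared by exact permutation tests, for which 3 against 3 allows no p below 0.1. Without a stated strand setting, reads of overlapping genes may be mixed. Among those named this touches CCNK, LEO1, MED17, CLK3, NOP16, BRCA1, ATM, RB1, FANCI, IFIT1, SOCS2, CISH, GAREM1 and NR1D1. It also touches FAS, NEDD8, ETV4, MED24, COPS2, POLR2B, SUPT4H1 and MAP1LC3B, and the list is not complete. Replicates of a group differed by more than counting noise.

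The members, gene lists and naming rule were chosen with earlier results of these data known. The rule names the 12 largest differences in each direction (protein-coding, no overlap between groups, at least 5 CPM), 12 fixed genes, up to 4 members per list with the lowest adjusted p, the 6 largest opposite calls against DMSO in each direction, and up to 6 genes changed alike. Lists carry counts and medians, no test. Alternatives were DESeq2 1.42.0, other scaling and filters, ERCC or SIRV alone, the 6 libraries alone, the replicate number as a block, and each library left out.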

Additional observations from a re-analysis of the deposited data

Results flagged for a closer look

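Reads that could not be assigned to a gene, which no comparison above uses as its main measure, carried 2 signals above the level in every DMSO library. Reads outside annotated exons made up 8.28% of counted reads on average with dCeMM-4 (7.82% to 9.05% over 3 libraries), against 5.24% with dCeMM-3 and at most 5.37% in a DMSO library. That total includes reads not aligned to a single position, which were more frequent with dCeMM-3. Without them the mean shares were 11.99% with dCeMM-4, 9.09% with dCeMM-3 and 7.30% with DMSO. On that total the dCeMM-3 and DMSO libraries overlapped (exact two-sided permutation p = 0.3). Reads not aligned to a single position made up 41.0% on average with dCeMM-3 (38.6% to 44.3%), against 29.4% with dCeMM-4 and at most 29.5% in a DMSO library. For both measures the exact two-sided permutation test of dCeMM-3 against dCeMM-4 gave p = 0.1, the smallest possible here, and their part in the gene differences was not tested.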

How the results depend on the processing

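The count of called genes changed little with software and filter on the TMM scale: 12472 with DESeq2 size factors in edgeR, 12204 with DESeq2, 12891 of 35976 without a filter, 8984 of 9922 at 5 CPM or more, 11829 of 13963 with the 6 libraries alone, and 12042 to 12343 with 1 library left out. On the spike-in scale it was 10578 with ERCC alone, 10682 with SIRV alone, 10590 with DESeq2, 11213 without a filter, and 9991 to 11120 with 1 library left out. The balance differed by scale: 50.2% of called genes were higher with dCeMM-3 by TMM and 7.57% by spike-in, and the opposite calls against DMSO fell to 736 on the spike-in scale and lay at 3092 to 3409 with 1 library left out. The spike-in ratio ran from 2.13 to 2.63 and the mitochondrial ratio from 1.88 to 2.34 with 1 library left out. The difference between long and short genes reversed to 0.165 at 200 kb against 10 kb, moved to -0.105 for genes at 5 CPM or more, and ran from -0.055 to 0.013 with 1 library left out; the cause was not tested.

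Deviations from the group mean correlated at 0.011, 0.128 and 0.086 between dCeMM-3 and dCeMM-4 libraries of the same replicate number. Between libraries of different numbers the values ran from -0.1325 to 0.032. With 3 libraries per group this cannot settle whether the numbers pair the samples, and the main fit left them unpaired. With the replicate number as a block, 12462 genes were called by TMM, 10508 by spike-in and 3411 in opposite directions, and no call of a named gene changed.

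Of 182 named genes, 35 that were higher on the TMM scale were negative on the spike-in scale, whose median over all genes is -1.17: MED24 (-0.30), CD4 (-0.26), TAF2 (-0.90), NFKB2 (-0.14), BAX (-0.65), RBX1 (-0.66), RELB (-0.64), FBL (-0.97), HSPB1 (-0.84), SRM (-1.07), ATF6 (-0.26), CCND2 (-0.50), MXI1 (-1.05), CANX (-0.51), COX7C (-0.31), NEDD8 (-0.19), GDF15 (-0.032), EDEM1 (-0.0015), TAOK3 (-0.94), FANCI (-0.055), RPL13A (-0.29), FANCD2 (-0.85), SESN3 (-0.34), CUL4B (-0.78), MED30 (-1.08), CD3D (-0.20), ETV4 (-0.40), MED12 (-0.82), HSF1 (-0.70), TCEA1 (-0.70), RPL14 (-0.26), NELFB (-0.99), SUPT4H1 (-0.72), GAS5 (-0.25) and ETV5 (-0.69). Another 15 kept a positive sign but did not pass the test by spike-in, among them FAS, DDB2, CDK19, STAT5B, CAD, TRAF1, SNHG8, MX1, NELFE and INTS6. TNFSF10, which did not pass the test, was at 0.011 with DESeq2 or its size factors, 0.038 with the 6 libraries alone and between -0.075 and 0.00964 with 1 library left out. DMSO replicate 3 had the lowest depth, with 4598576 gene counts, which limits what can be said of low genes against DMSO.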
